A study of Arabidopsis thaliana with 10 samples.

Results

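Iron uptake by Arabidopsis roots is run by a small network of transcription factors, and 10 genes of that network were followed here: the bHLH factors BHLH38, BHLH39, BHLH100 and BHLH101, their partner FIT, the upstream factor bHLH115, the negative regulators PYE and BTS, and the uptake genes FRO2 and IRT1. They were matched by locus identifier, and all 10 were found among the 73194 features of the RNA count table. The genes were picked with the counts of fve-8 against WT already known, so their levels and fold changes in that contrast are given as a description, without a test. Whole seedlings of ecotype Ler were grown for 5 days on MS medium without treatment, and both genotypes grew under the same light. WT is the line E5-4, and fve-8 is a homozygous mutant of FVE, a WD40-repeat protein known from the autonomous flowering pathway and from histone deacetylase complexes. RNA was sequenced from 3 libraries per genotype, and the labels do not say whether these came from separate cultures. SEs and p-values here cover only library-to-library spread, part or all of which may be technical.

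As background, an iron-starved root epidermis releases protons, reduces ferric iron with FRO2 and imports ferrous iron through IRT1. FIT switches on both genes, but only as a dimer with a factor of bHLH subgroup Ib, which comprises BHLH38, BHLH39, BHLH100 and BHLH101. The Ib genes are themselves turned on by subgroup IVc factors such as bHLH115 and ILR3, while the ubiquitin ligase BTS marks IVc factors for breakdown and PYE represses a further set of iron genes.

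The RNA libraries held 16161800 to 19599058 counts. Plastid genes took 44.9% to 45.9% of the counts in WT and 33.0% to 38.5% in fve-8. FVE (AT2G19520) stood at 8.67 to 9.97 CPM (counts scaled to a TMM-adjusted library size) in WT. In fve-8 its range was 5.40 to 6.61 CPM, and the fitted log2 difference was -0.65 ± 0.14 (SE, edgeR quasi-likelihood test, adjusted p = 0.0184). That fit covered all 19543 features past the count filter, of which 6.60% were called higher in fve-8 and 5.07% lower, a call being an adjusted p under 0.05. Changes are relative to the median feature, whose log2 fold change was -0.01 with this scaling. Every marker fixed for mesophyll, stomata, shoot meristem, root hair, root epidermis and endodermis had counts in all 6 libraries.

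In fve-8 seedlings the Ib factors and both uptake genes stood above WT, whereas FIT, PYE and BTS had fitted ratios of 1.14, 0.923 and 0.889. The 4 Ib genes together summed to 4.40 to 6.05 CPM in the WT libraries and to 12.7 to 16.5 CPM in the fve-8 libraries. FRO2 and IRT1 were each about as high again as in WT, with fitted ratios of 2.14 and 2.12. Of the 10 genes, 6 were called higher in the fit over all features, where 6.60% of features were. In 7 genes every fve-8 library lay above every WT library, against 15.6% of features, and in 1 gene, BTS, every fve-8 library lay below, against 17.4%. These counts follow from a choice made on the same contrast and nothing is read from them. The median log2 fold change was 1.02 over the 10 genes and -0.01 over all features tested.

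**Figure D1:**
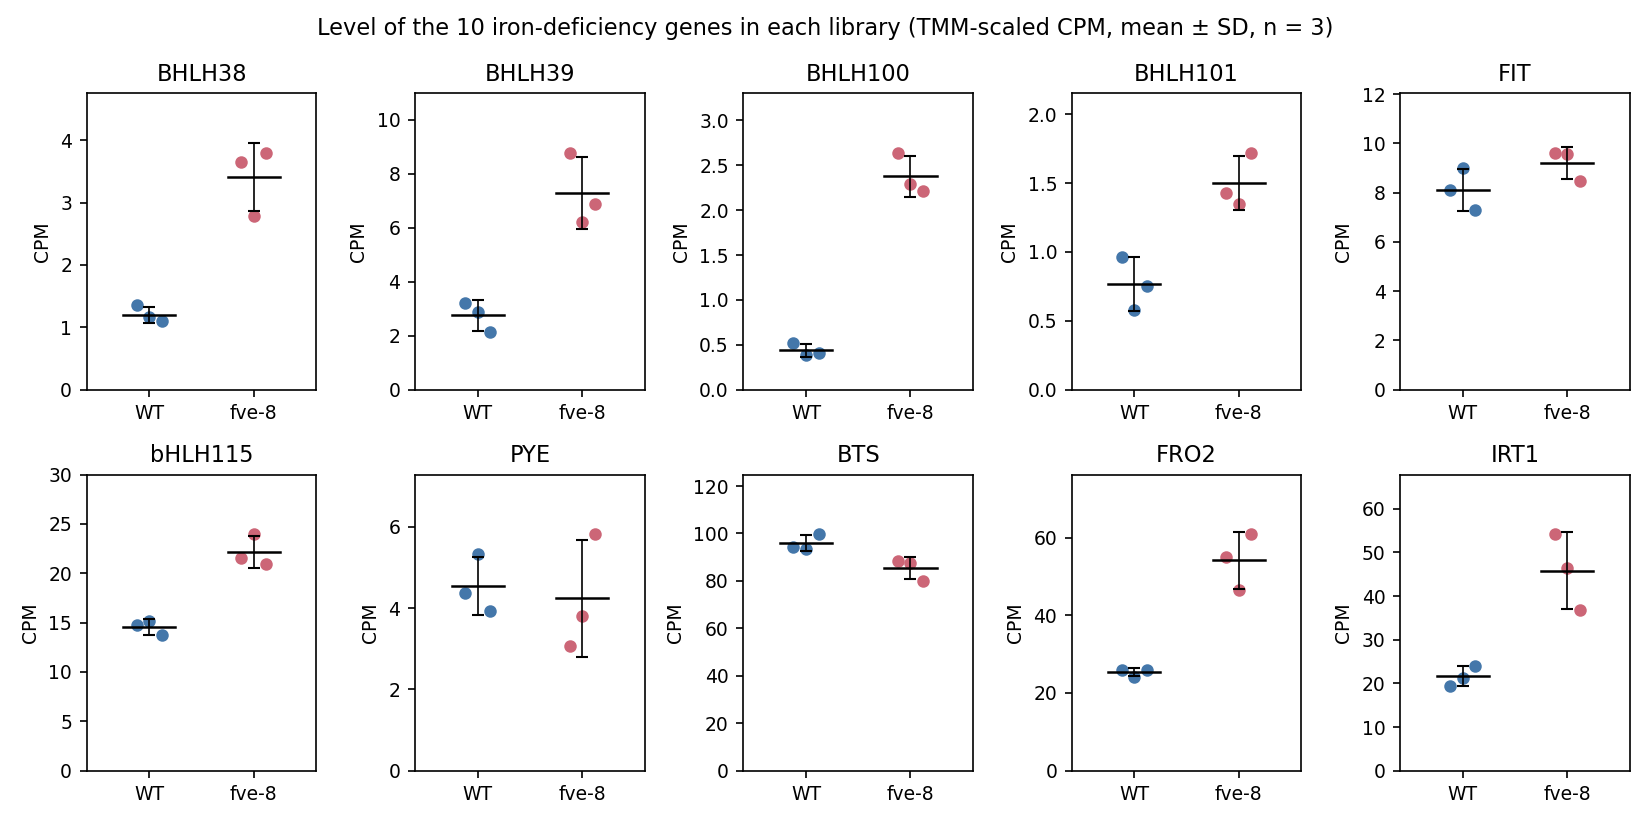
TMM-scaled CPM of each of the 10 genes in each library, by genotype. Points are libraries, the long bar is the mean and the error bar the SD (n = 3). Each vertical axis starts at 0 and has its own scale. BHLH38, BHLH39, BHLH100, BHLH101, bHLH115, FRO2 and IRT1 do not overlap between genotypes and are higher in fve-8, BTS does not overlap and is lower, and FIT and PYE overlap.

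BHLH39 (AT3G56980) had the most reads of the Ib genes. It stood at 3.22, 2.89 and 2.13 CPM in WT replicates 1 to 3 and at 8.77, 6.22 and 6.87 CPM in fve-8. The lowest fve-8 library was above the highest WT library, and the log2 fold change was 1.40 ± 0.20 (SE). BHLH38 (AT3G56970), its neighbour on chromosome 3, stood at 1.35, 1.16 and 1.10 CPM in WT and at 3.65, 2.79 and 3.80 CPM in fve-8, with a log2 fold change of 1.49 ± 0.22. Within a library the pair kept a similar proportion, with 1.94 to 2.50 BHLH39 reads per BHLH38 read in WT and 1.81 to 2.41 in fve-8. The annotated span of BHLH38 overlaps that of AT3G56960, and no source used here says whether counting was by strand. AT3G56960 held 18, 28 and 13 counts in WT and 52, 42 and 15 in fve-8, where BHLH38 held 21, 18 and 16 and then 69, 66 and 62. The part of AT3G56960 reads in the BHLH38 counts was not tested.

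BHLH100 (AT2G41240) had the highest fitted ratio of the 10 genes and the fewest WT reads. Its counts were 8, 6 and 6 in the WT libraries and 50, 54 and 36 in the fve-8 libraries, or 0.515, 0.385 and 0.412 CPM against 2.64, 2.29 and 2.21 CPM. The genotypes were far apart, with a log2 fold change of 2.42 ± 0.27, a fitted ratio of 5.36. It reached the count filter in 0 of 3 WT libraries and in 3 of 3 fve-8 libraries, so that it could enter the fit only because it was high in fve-8. Its part of the Ib reads was 7.69% to 9.38% in WT and 15.1% to 18.1% in fve-8.

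BHLH101 (AT5G04150) differed least among the Ib genes. It stood at 0.965, 0.578 and 0.756 CPM in WT and at 1.43, 1.35 and 1.72 CPM in fve-8. The ranges did not overlap, but the log2 fold change of 0.95 ± 0.28 was not called. It reached the count filter in 2 of 3 WT libraries and 3 of 3 fve-8 libraries, so that it too passed the filter only through fve-8. Its part of the Ib reads was 11.5% to 17.2% in WT and 8.65% to 11.8% in fve-8, ranges that overlap. Its annotated span overlaps AT5G04140, which held 14097 to 23721 counts per library against 9 to 32 for BHLH101, and the part of stray reads in the BHLH101 counts was not tested.

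FIT (AT2G28160), the factor that the Ib proteins pair with, was close in both genotypes. It stood at 8.10, 8.99 and 7.28 CPM in WT and at 9.62, 9.56 and 8.47 CPM in fve-8. The ranges overlapped, and the log2 fold change was 0.18 ± 0.13, or 0.53 with library totals in place of TMM scaling, a setting that moves the median of all features to 0.33. bHLH115 (AT1G51070), upstream of the Ib genes, stood at 14.8, 15.2 and 13.7 CPM in WT and at 21.5, 24.0 and 20.9 CPM in fve-8. All 3 fve-8 libraries were above WT and the spread within a genotype was small, with a log2 fold change of 0.60 ± 0.11. This call was lost when any 1 WT library was left out, where the value kept within 0.54 to 0.66 over all 6 such fits. An overlapping gene, AT1G51080, held 8 to 11 counts in WT and 16 to 40 in fve-8, against 200 to 236 and 340 to 568 for bHLH115.

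The negative regulators BTS and PYE did not follow the Ib genes. This holds for these genes only, as loci listed under BTS-like names stood higher in fve-8. AT1G74770, listed as BTSL1, was called higher, with a log2 fold change of 0.64 ± 0.13. AT1G18910, listed as BTSL2, was not called, at 0.45 ± 0.16, though every fve-8 library lay above every WT library. BTS (AT3G18290) stood at 94.4, 93.6 and 99.9 CPM in WT and at 88.3, 87.7 and 79.9 CPM in fve-8. The fve-8 libraries were all slightly below WT. The log2 fold change of -0.17 ± 0.09 was not called. It turned to 0.17 with library totals, a setting that moves the median of all features from -0.01 to 0.33. PYE (AT3G47640) stood at 4.37, 5.33 and 3.92 CPM in WT and at 3.07, 3.81 and 5.83 CPM in fve-8. Its fve-8 libraries spanned the whole WT range, replicate 3 being the highest of all 6 libraries, and its log2 fold change of -0.12 ± 0.24 turned to 0.06 without fve-8 replicate 1 and to 0.21 with library totals. In each library, reads of bHLH115 per read of BTS, a ratio free of library scaling, were 0.137 to 0.162 in WT and 0.243 to 0.274 in fve-8.

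**Figure D2:**
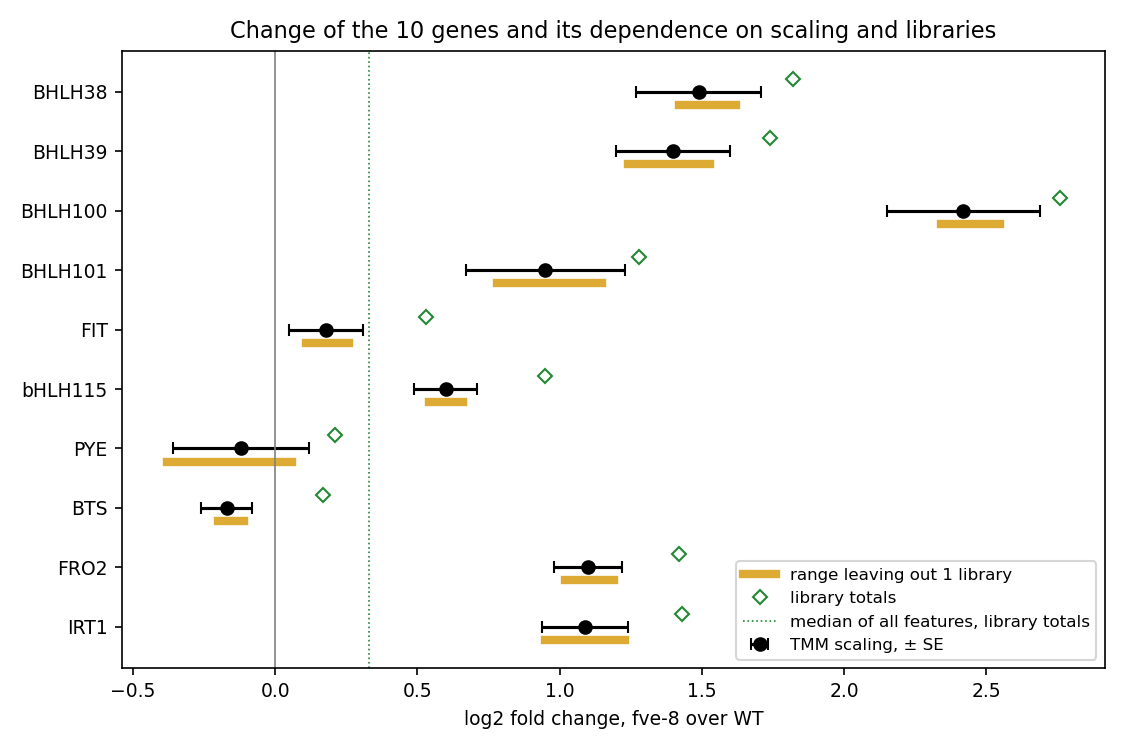
Log2 fold change of fve-8 over WT for each of the 10 genes. Black points are the values with TMM scaling and their SE, yellow bars span the 6 fits that each leave out 1 library, and green diamonds use library totals, whose median over all features is the dotted line at 0.33. The Ib genes, bHLH115, FRO2 and IRT1 lie to the right of both lines, while BTS and PYE lie left of the dotted line even with library totals.

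FRO2 (AT1G01580), the ferric reductase of the root surface, was even within WT at 26.0, 24.1 and 25.8 CPM and stood at 54.9, 46.5 and 61.0 CPM in fve-8. The gap between genotypes was much wider than the spread inside either, with a log2 fold change of 1.10 ± 0.12. IRT1 (AT4G19690), the ferrous iron importer, stood at 19.5, 21.3 and 24.1 CPM in WT and at 54.3, 46.4 and 36.8 CPM in fve-8. It also did not overlap, with a log2 fold change of 1.09 ± 0.15. The pair differed in fve-8 replicate 3, which held the highest FRO2 and the lowest IRT1 level of its genotype: IRT1 reads per FRO2 read were 0.603 there, 0.989 and 0.998 in fve-8 replicates 1 and 2, and 0.748 to 0.936 in WT. Per read of FIT there were 2.68 to 3.54 FRO2 reads in WT and 4.86 to 7.20 in fve-8, and 2.36 to 3.31 IRT1 reads in WT and 4.34 to 5.64 in fve-8. FRO2 and IRT1 thus did not move in proportion to FIT, whichever library scaling is used, while IRT1 reads per FRO2 read overlapped between genotypes.

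FRO2 and IRT1 are genes of the root epidermis, so the markers of root cells were read beside them. Of 15 tested root markers, 4 fell with edgeR, COBL9, PIN2, CASP1 and CASP2, against 5.07% of all features called lower. For root markers called higher, edgeR, DESeq2 and limma-voom each gave 0, and 0 had an unadjusted p under 0.05 on that side. All 16 listed markers summed to 120.0 to 127 CPM in WT and to 83.1 to 86.3 CPM in fve-8, and 0 of them was at 0 counts in any library. Of the 15 tested, 11 lay lower in every fve-8 library than in every WT library, and 0 lay higher in every one. The shares of all features were 17.4% and 15.6%. The median log2 fold change of the tested markers was -0.46, where the median of all features was -0.01. With library totals the marker median was -0.12 and 0 were called lower, but the median of all features moved to 0.33. Those called lower numbered 1 when any 1 WT library or fve-8 replicate 2 was left out, 2 without fve-8 replicate 1 and 7 without fve-8 replicate 3. In whole seedlings, fewer root cells and less of these RNAs per root cell cannot be told apart. The 9 shoot markers had a median log2 fold change of -0.17, or 0.16 with library totals. Of them, 5 lay lower in every fve-8 library than in every WT library, where 17.4% of features did. Another 1 lay higher in every fve-8 library, where 15.6% of features did. edgeR called 0 of them, with 0 higher and 2 lower at an unadjusted p under 0.05, limma-voom called 0 and DESeq2 1 lower, and with library totals edgeR called 1 higher. The uptake genes stood higher in libraries in which root markers stood lower: FRO2 had 0.201 to 0.216 CPM per CPM of summed root markers in WT and 0.545 to 0.706 in fve-8, IRT1 0.161 to 0.190 and 0.426 to 0.653. The part of root tissue in these values was not tested. The same ratio for FIT was 0.0573 to 0.0751 in WT and 0.0981 to 0.116 in fve-8, so that FIT too was higher relative to this sum.

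**Figure D3:**
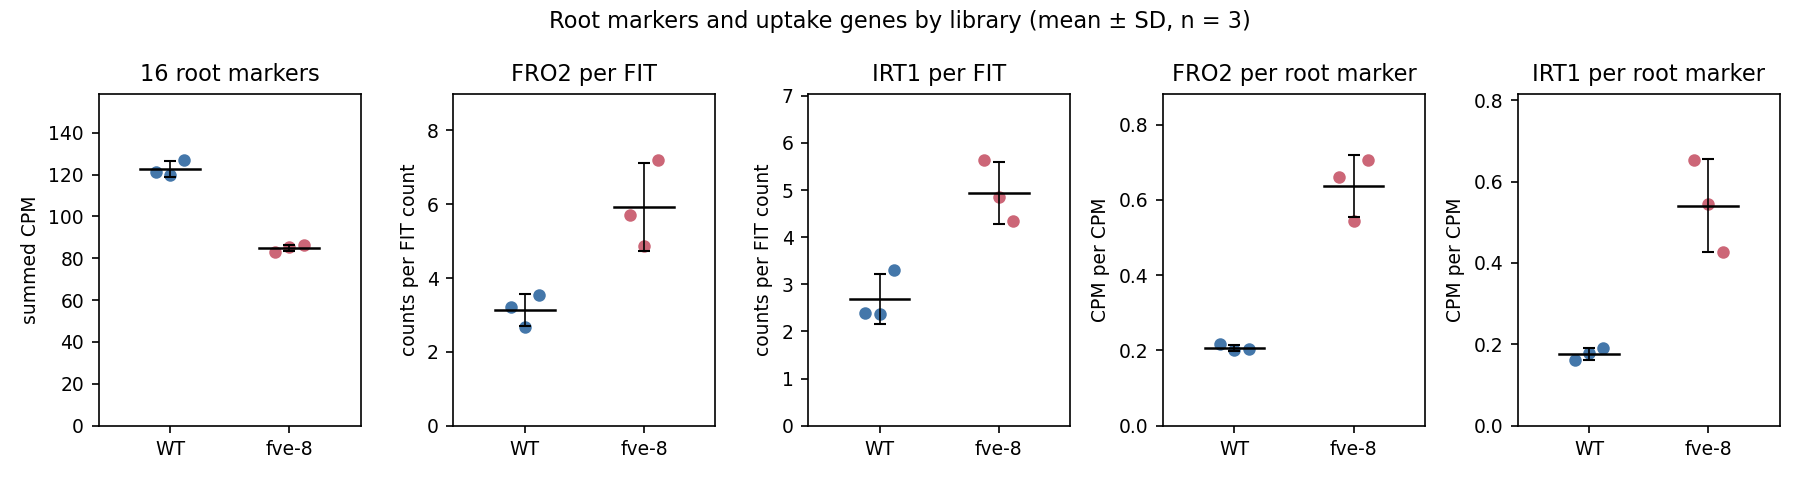
From left to right, the summed CPM of 16 root markers, the FRO2 and IRT1 counts per FIT count, and the FRO2 and IRT1 CPM per CPM of summed root markers, by library. Points are libraries, bars the mean with its SD (n = 3), and axes start at 0. The marker sum is 83.1 to 86.3 CPM in all fve-8 libraries, below every WT library, and the other 4 panels are higher in every fve-8 library than in every WT library.

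Beyond the 10 genes, calls in the iron system were spread over several roles. Of 51 further iron homeostasis genes with a name in the reference, 47 were tested and 6 rose in fve-8: GRF11, FRO3, CYP82C4, NAS2, YSL1 and NEET. These are 12.8% of those tested, against 6.60% of all features called higher, and NAS2 among them passed the count filter only through fve-8. For genes called lower, edgeR gave 0, with 6 at an unadjusted p under 0.05, limma-voom 0 and DESeq2 1. The median log2 fold change of the 47 genes was 0.07, against -0.01 for all features. With 15 listed loci that the reference does not name as listed counted in, 9 of 60 tested loci rose.

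NAS2 (AT5G56080) makes nicotianamine, the chelator that carries iron between cells. It had 3, 5 and 6 counts in WT and 27, 37 and 34 in fve-8, or 0.193, 0.321 and 0.412 CPM against 1.43, 1.57 and 2.09 CPM. No WT library came near the fve-8 ones, and the log2 fold change was 2.42 ± 0.35 (SE). It reached the count filter only in the fve-8 libraries, so it was tested because it was high there and its call is given as a description. Reads shared with other NAS genes could be counted on either. YSL1 (AT4G24120), a transporter of metal and nicotianamine complexes, went from 2.91 ± 0.214 CPM to 5.53 ± 1.11 CPM (SD, n = 3). Its fitted log2 change was 0.93 ± 0.19 (edgeR adjusted p = 0.0159). The phloem iron transporter gene OPT3 (AT4G16370) had the most reads of this group and was not called, at -0.21 ± 0.10.

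NEET (AT5G51720), which encodes an iron-sulfur protein, rose from 2.19 ± 0.167 to 4.07 ± 0.645 CPM (SD, n = 3), or by 0.89 ± 0.19 on the log2 scale (edgeR adjusted p = 0.0198). The ferritin gene FER1 (AT5G01600), for iron storage, was spread widely in fve-8, at 38.3, 71.2 and 80.9 CPM against 36.5 to 45.9 CPM in WT. The genotypes overlapped through fve-8 replicate 1, and FER1 was not called (0.60 ± 0.23, edgeR adjusted p = 0.119). CYP82C4 (AT4G31940), a hydroxylase of the iron-binding coumarins that roots secrete, went from 1.08 ± 0.212 to 2.12 ± 0.435 CPM (SD, n = 3), a log2 change of 0.97 ± 0.26 (edgeR adjusted p = 0.0435). PDR9 (AT3G53480), which exports such coumarins, was not called, at 0.14 ± 0.10.

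FRO3 (AT1G23020), a ferric reductase gene related to FRO2, rose from 29.8 ± 1.81 to 39.3 ± 2.57 CPM (SD, n = 3), or by 0.40 ± 0.10 on the log2 scale (edgeR adjusted p = 0.0304). The root proton pump gene AHA2 (AT4G30190) stood at 678 ± 22.5 CPM in WT and 536 ± 47.8 CPM in fve-8, with a log2 fold change of -0.34 ± 0.11 that was not called (edgeR adjusted p = 0.0770). GRF11 (AT1G34760), a 14-3-3 protein gene, was called higher (0.66 ± 0.18, edgeR adjusted p = 0.0458), although its highest WT library and its lowest fve-8 library both stood at 11.3 CPM. With edgeR 6.60% of all features were called higher and 5.07% lower, so a 0 among 14 genes says little. Of 14 tested membrane transporter genes edgeR, DESeq2 and limma-voom called 0, while 3 had an unadjusted p under 0.05 with edgeR, 1 higher and 2 lower. The one with the most reads, MAR1 (AT5G26820), had a log2 fold change of 0.06 ± 0.12.

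Of the other 5 calls, each was lost in some fits that left out 1 library, while the log2 fold changes stayed at 0.37 to 0.47 for FRO3, 0.75 to 1.04 for YSL1, 0.80 to 0.99 for NEET, 0.54 to 0.84 for GRF11 and 0.79 to 1.10 for CYP82C4. The calls of FRO3, YSL1 and NEET were lost when any 1 WT library or fve-8 replicate 2 was left out, that of GRF11 when replicate 1 or 2 of either genotype was, and that of CYP82C4 without any 1 library except fve-8 replicate 3. CYP82C4 was not called by DESeq2 or limma-voom either. The genes called higher numbered 1 when replicate 1 or 2 of WT, or replicate 2 of fve-8, was left out, and 2 without WT replicate 3.

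**Figure D4:**
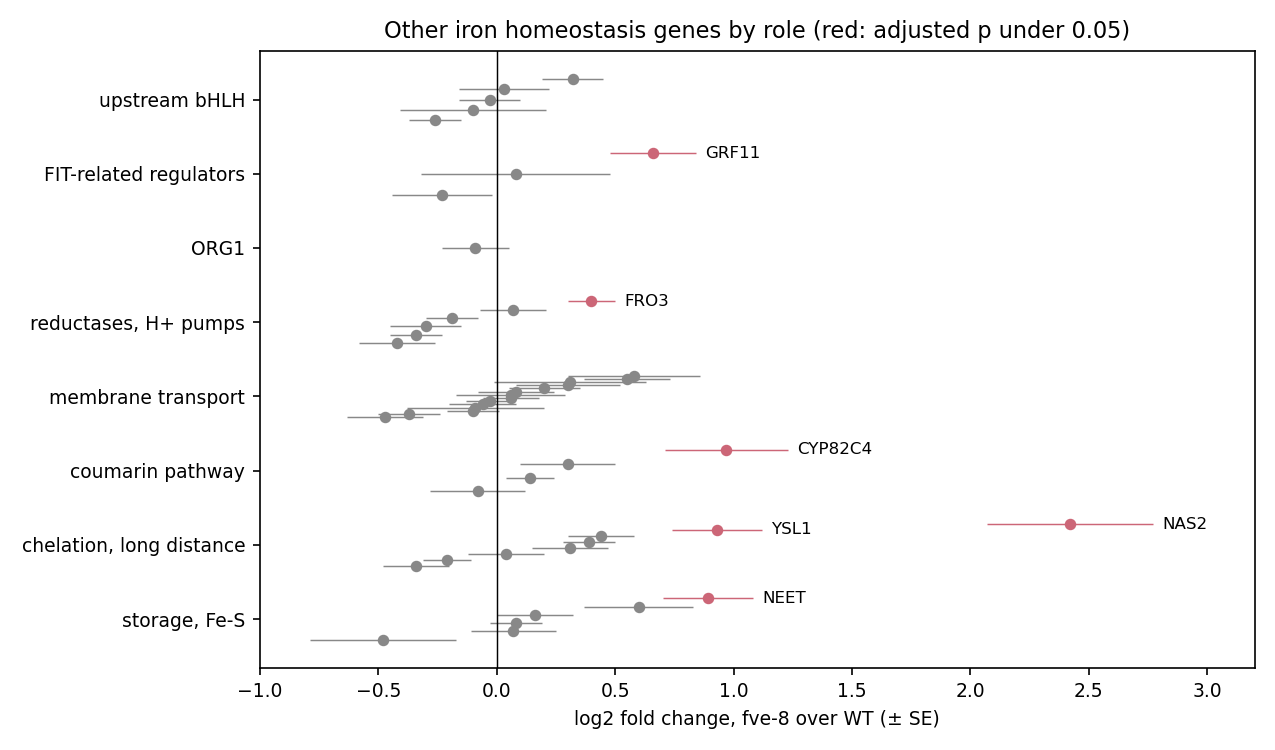
Log2 fold change of fve-8 over WT with its SE for the 47 tested iron homeostasis genes outside the 10, grouped by role. Red marks an adjusted p under 0.05 in the fit over all features, and names are given for those. The 6 red genes all lie to the right of 0, with NAS2 at 2.42 and the others between 0.40 and 0.97.

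Upstream of the Ib genes 0 of 5 listed factors with a name in the reference were called. Over all features 6.60% were called higher and 5.07% lower, so a 0 among 5 genes says little. ILR3 (AT5G54680), another IVc factor, stood at 63.4 ± 3.37 CPM in WT and 52.8 ± 5.78 CPM in fve-8 (SD, n = 3), and its log2 difference of -0.26 ± 0.11 was not called (edgeR adjusted p = 0.139). For these 5 genes edgeR, DESeq2 and limma-voom called 0, and with edgeR 1 had an unadjusted p under 0.05 in each direction. That 0 holds for the named genes only: of 5 further loci listed beside them, which the reference does not name, 3 were called higher with edgeR. These were AT1G74770 (listed as BTSL1, 0.64 ± 0.13), AT1G47395 (listed as IMA2, 0.77 ± 0.18) and AT2G30766 (listed as IMA3, 0.97 ± 0.20). Of all 10 listed upstream loci, 3 were called higher, or 30.0%, against 6.60% of all features. ORG1 (AT5G53450), a gene known to respond to iron shortage together with the Ib genes, had a log2 fold change of -0.09 ± 0.14. AT3G07720, an unnamed locus listed in the same role, was not called, at 0.39 ± 0.12 (edgeR adjusted p = 0.069). Every fve-8 library of AT3G07720 lay above every WT library, as in 15.6% of features.

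Genes for uptake and regulation of zinc and copper were listed for comparison. Of 17 tested, 1 rose and 2 fell, or 5.88% and 11.8% of those tested against 6.60% and 5.07% of all features, and the median log2 fold change was -0.13. The zinc transporter gene ZIP3 (AT2G32270, -0.57 ± 0.15, edgeR adjusted p = 0.0351) and the copper importer gene COPT1 (AT5G59030, -0.42 ± 0.11, edgeR adjusted p = 0.0396) fell. Both calls were lost with library totals, with DESeq2, and without any 1 library except fve-8 replicate 3. FRO5 (AT5G23990), a copper-linked relative of FRO2, rose from 14.4 ± 1.19 to 26.9 ± 7.67 CPM (SD, n = 3), a log2 change of 0.90 ± 0.18 (edgeR adjusted p = 0.0159), a call lost without any 1 WT library. FRO4 (AT5G23980), named after its values were seen because it adjoins FRO5 and resembles it, stood at 3.10 ± 0.596 and 1.40 ± 0.735 CPM and was not called, and reads of the pair could be counted on either gene.

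Outside the iron genes, the profiles nearest to the mean of the 4 Ib genes were sought among 12359 nuclear genes averaging 5 CPM or more, as the root mean square difference of centred log2 CPM over the 6 libraries. MYB4 (AT4G38620), a repressor of phenylpropanoid genes, was nearest at 0.17, with 2.76 to 3.15 CPM in WT and 6.63 to 8.56 CPM in fve-8. AT2G43620 and AT3G52040 followed at 0.21, and AT5G04750 and MRU1 (AT5G35490) at 0.22. FRO2 lay at 0.22 and IRT1 at 0.33 from the same mean, FIT at 0.67 and BTS and PYE at 0.84 and 0.87. The Ib genes that form this mean lay at 0.08 (BHLH38), 0.15 (BHLH39), 0.37 (BHLH100) and 0.32 (BHLH101). This likeness is mostly the shared difference between genotypes and is a description of these 6 libraries.

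In the authors' deposited table the log2 fold changes of the 10 genes lay within 0.04 of those given here. The authors' deposited table calls 6 of the 10 higher, BHLH38, BHLH39, BHLH100, bHLH115, FRO2 and IRT1, against 5.74% of the features with an adjusted p in it. It holds 21080 features with an adjusted p and 1210 called higher, the same numbers as the DESeq2 fit made here. Both start from the same counts, so this closeness is no independent evidence.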

How the data were processed

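Per the labels' protocols, RNA was taken with Trizol and sequenced from TruSeq stranded total RNA libraries. The authors deposited raw read counts for every feature in each library; per the submitters' processing notes TopHat2, SAMtools, HTSeq and edgeR were used. Build, versions and counting mode: not given in the sources used here. The log2 fold changes and adjusted p-values in the authors' deposited table were copied, not used in tests. The small RNA table was not used here.

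Counts were fitted with edgeR 4.0.16 in R 4.3.3 (filterByExpr with a minimum of 10 counts, TMM, quasi-likelihood test, genotype as the only term, Benjamini-Hochberg adjustment over all 19543 features tested). The fit was tested on simulated data in which both genotypes had the same dispersion. A call is an adjusted p under 0.05. All 10 genes passed the filter, 8 of them in every WT library and 2, BHLH100 and BHLH101, only through fve-8. CPM use TMM-scaled library sizes, each SE is the log2 change divided by the root of its F statistic, and SDs cover 3 libraries. Centred log2 CPM used a prior count of 2. Alternatives were other scalings and filters, DESeq2 1.42.0, limma-voom (limma 3.58.1), a replicate block and leaving out each library.

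The 10 genes and all lists were chosen with earlier results of these data known. Named besides them are the called genes of the iron and the zinc and copper lists, in each role of the iron list the gene with the highest mean CPM, and the 5 nearest profiles. Symbols come from the RefSeq table of TAIR10.1, its synonyms included, except FIT, whose symbol there is FRU. Of the listed loci, 15 iron loci and 1 copper locus without the listed name there were left out, except where the text says that unnamed loci are given or counted in. FRO4, VIT1, MYB72, FRO1 and IRT2 are named outside this rule. No transcript lengths were used, so CPM of different genes, the pick by mean CPM included, do not rank their transcript levels.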

Additional observations from a re-analysis of the deposited data

How the results depend on the processing

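With library totals the median over all features went from -0.01 to 0.33 and the median over the 10 genes from 1.02 to 1.35 (log2), 5598 features were called higher and 192 lower (1290 and 990 with TMM), and calls numbered 20 higher among other iron genes (6 with TMM), 4 higher and 0 lower among zinc and copper genes, and 0 lower among root markers. Without a count filter 10 other iron genes were called higher. DESeq2 called 1 other iron gene, 1 zinc or copper gene and 2 root markers lower. The replicate block gave 768 features higher and 461 lower, 3 other iron genes higher, 0 zinc or copper genes lower and 2 root markers lower. The labels give same-numbered libraries only a shared number. Their correlations of deviations were -0.012, -0.056 and -0.151, against -0.083 to 0.125 for the other pairs. These values cannot tell whether such libraries shared a culture or a batch.

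Leaving out 1 library gave 216 to 2444 features called higher and 128 to 1986 lower, 1 to 8 other iron genes higher and 0 to 3 lower, 0 to 2 zinc or copper genes higher and 0 to 4 lower, 1 to 7 root markers lower, and a median of 0.92 to 1.06 over the 10 genes. The highest counts came without fve-8 replicate 3 and the fewest calls over all features without WT replicate 1. The fve-8 libraries differed more among themselves than the WT libraries did. The chi-square per degree of freedom between 2 libraries was 2.78 to 4.31 in WT. In fve-8 it was 18.4 for replicates 1 and 2, and 40 and 46.4 for the pairs with replicate 3. The fit used a dispersion shared by both genotypes. The cause of these shifts was not tested. Counts of 6 to 15 per WT library limit the precision of BHLH100 and BHLH101.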

Other observations

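Some listed iron genes stood low. VIT1 (AT2G01770), the vacuolar iron importer gene of seeds, had 0 counts in all 6 libraries, which allows up to 3 counts or 0.127 to 0.206 CPM per library, counting error only. MYB72 (AT1G56160) had 1 count in WT replicate 1 and 0 in every other library. FRO1 (AT1G01590), the neighbour of FRO2, held 0 to 7 counts per library. These genes did not pass the count filter. IRT2 (AT4G19680), the neighbour of IRT1, was tested and not called: it held 25 to 33 counts in WT and 43 to 46 in fve-8, with a log2 fold change of 0.30 ± 0.22.

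The 10 genes together took 0.0152% to 0.0160% of all counts in WT and 0.0229% to 0.0287% in fve-8, shares that also move with the lower plastid share of the fve-8 libraries.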
